A study of Mus musculus with 6 samples.

Results

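NF-κB is the family of dimeric transcription factors through which many signals of infection and tissue damage switch on inflammatory genes. The gene set described here holds 10 genes, chosen by symbol: the 5 subunits Nfkb1, Nfkb2, Rela, Relb and Rel, and 5 genes that restrain or modulate the pathway, Nfkbia, Nfkbie, Nfkbiz, Tnfaip3 and Bcl3. All 10 were among the 20129 genes measured, and all 10 passed the filter on low values, as did 11900 genes in all. They were followed in microglia, the resident macrophages of the brain, from Il3-/-5xFAD mice and from 5xFAD mice.

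The 5xFAD mouse carries mutant human amyloid precursor protein and presenilin transgenes driven in neurons by Thy1 promoter sequence, and amyloid builds up in its brain. Both groups carried these transgenes on the C57BL6/J strain and were 5 months old, and the Il3-/-5xFAD mice also lacked interleukin-3, a cytokine of blood cell development. Each of the 6 libraries, 3 per genotype (Il3-/-5xFAD replicates 1, 2 and 3; 5xFAD replicates 4, 5 and 6), was a pool of 2 male and 2 female mice, without a group free of the amyloid transgenes. Live CD45+ CD11b+ cells were sorted after warm enzymatic digestion of the brain, a gate that other brain and blood myeloid cells can also enter.

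In resting cells the dimers are held in the cytoplasm by inhibitory IκB proteins. An activating kinase complex marks the IκB protein for destruction, the dimer enters the nucleus, and among the genes it switches on are those of its own inhibitors, so that the signal is shut off by a feedback loop. Nfkbia encodes IκBα, the main inhibitor renewed in this loop, and Nfkbie encodes the related IκBε. Tnfaip3 encodes a ubiquitin-editing enzyme that stops signalling upstream of the kinase. Nfkbiz and Bcl3 encode nuclear IκB-like proteins that bind the dimers on DNA and change which targets they switch on. Microglia use the pathway in their responses to microbial products, cytokines and tissue damage.

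The promoters are shown because the loop rests on them: the dimers bind κB sites in DNA. The search used the κB consensus, a run of G bases and a run of C bases around a short A and T rich middle, on both strands of windows from 250 bases before to 50 bases after the transcription start (RefSeq, GRCm38.p6). Of the 10 genes, 7 had a window, and 6 of these 7 held at least 1 match, against 6.27% of the 8470 tested genes with a window and 4.51% of all 32851 windows. Rela had a window with no match to these letters. Nfkb1, Relb and Nfkbiz were not searched. All 4 restraining or modulating genes with a window held a match. So did 12 of 27 genes of a list of known NF-κB targets and 3 of 19 genes of a list of early genes. Nfkbie held GGGGGATTCC on the strand of the gene, from base -106 to base -97, and Bcl3 held GGGACTTCCC on the other strand, from base 3 to base 12. Matches describe the letters, and binding was not measured. The windows of the 2 inhibitors with the highest levels and of the 2 subunits with a match are printed 5′ to 3′ on the strand of the gene, with matched bases in capitals. The capitals of Nfkbia, from base -29 to base -20, read GGGAATTTCC on the other strand. The first capitals of Tnfaip3, from base -125 to base -116, are read on the strand of the gene and the second, from base -12 to base -3, on the other. Matches in Rel and in the first stretch of Nfkb2 overlap, since their letters are nearly the same on both strands.
Nfkbia, chr12:55492598-55492897, minus strand: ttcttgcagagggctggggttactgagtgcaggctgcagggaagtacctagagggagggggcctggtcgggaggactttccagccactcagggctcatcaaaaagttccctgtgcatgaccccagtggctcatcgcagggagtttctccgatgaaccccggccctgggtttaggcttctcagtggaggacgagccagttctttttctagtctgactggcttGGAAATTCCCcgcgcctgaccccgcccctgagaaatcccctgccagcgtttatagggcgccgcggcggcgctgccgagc
Tnfaip3, chr10:19015361-19015660, minus strand: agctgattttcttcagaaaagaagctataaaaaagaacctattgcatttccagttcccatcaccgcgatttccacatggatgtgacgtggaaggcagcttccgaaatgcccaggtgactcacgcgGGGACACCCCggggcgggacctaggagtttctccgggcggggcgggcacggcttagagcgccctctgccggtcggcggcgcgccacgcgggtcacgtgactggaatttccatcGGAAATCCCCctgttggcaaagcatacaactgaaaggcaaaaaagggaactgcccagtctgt
Rel, chr11:23770920-23771219, minus strand: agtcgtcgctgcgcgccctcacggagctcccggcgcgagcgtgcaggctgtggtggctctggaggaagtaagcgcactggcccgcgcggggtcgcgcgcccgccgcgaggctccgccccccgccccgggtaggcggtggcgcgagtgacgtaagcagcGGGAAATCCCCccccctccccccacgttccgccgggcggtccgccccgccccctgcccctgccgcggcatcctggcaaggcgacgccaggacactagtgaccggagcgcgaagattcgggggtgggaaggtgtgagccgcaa
Nfkb2, chr19:46304487-46304786, plus strand: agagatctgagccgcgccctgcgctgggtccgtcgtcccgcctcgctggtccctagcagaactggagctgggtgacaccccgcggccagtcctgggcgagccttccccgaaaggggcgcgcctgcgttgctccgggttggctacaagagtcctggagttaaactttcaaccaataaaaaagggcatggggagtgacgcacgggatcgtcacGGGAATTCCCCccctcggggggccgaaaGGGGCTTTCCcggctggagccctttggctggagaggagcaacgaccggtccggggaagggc

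**Figure D1:**
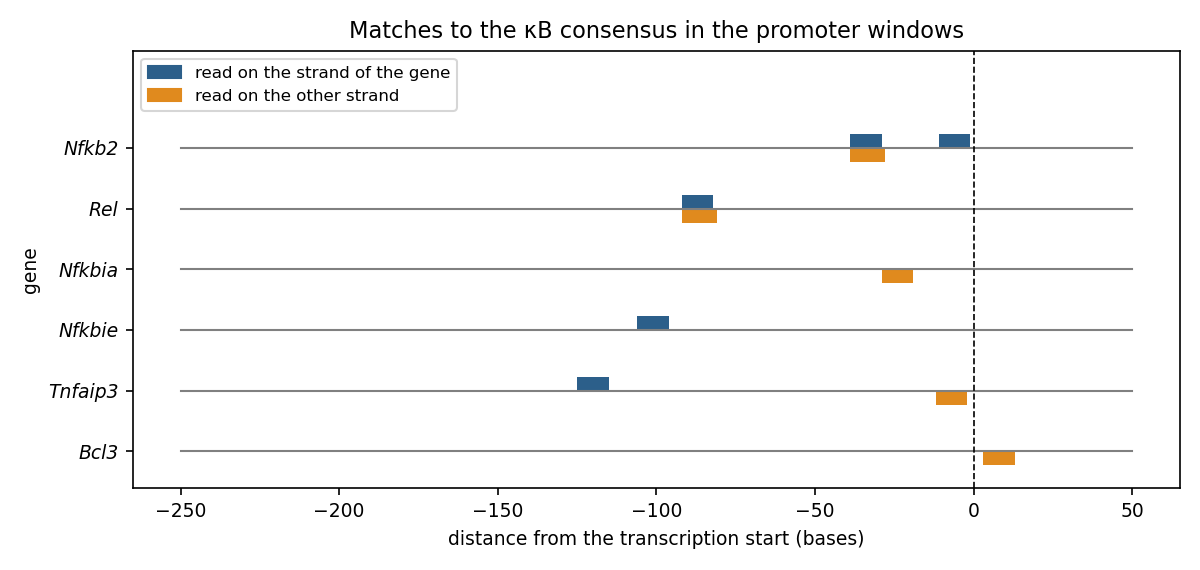
Matches to the κB consensus in the promoter windows of the 6 genes that hold one. The horizontal axis gives the distance from the transcription start in bases, each grey line is 1 window from 250 bases before to 50 after the start, and bars above and below the line are matches read on the strand of the gene and on the other strand; for Nfkb2 and Tnfaip3 the first window is drawn. The matches of Nfkbie, Rel and Tnfaip3 reach from base -125 to base -3, and that of Bcl3 lies just after the start.

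The unit of the levels is CPM, which scales each library to 1000000 reads, and library totals lay between 27970850 and 37605490 reads. The targeted gene checked the labels: Il3 had no read in any Il3-/-5xFAD library and 54, 61 and 29 reads in 5xFAD replicates 4, 5 and 6. The microglia marker Tmem119 averaged 2716 ± 394 CPM in Il3-/-5xFAD and 2485 ± 191 CPM in 5xFAD, and P2ry12, another microglia marker, averaged 3190 ± 381 CPM in Il3-/-5xFAD and 2768 ± 134 CPM in 5xFAD (SD, n = 3 each). The groups of Tmem119 and P2ry12 overlapped, while in Cx3cr1, Fcrls and Gpr34, other microglia markers named after their values were seen, every Il3-/-5xFAD library stood above every 5xFAD library. None of these 5 was called by limma, edgeR or DESeq2, and Gpr34 had an unadjusted limma p under 0.05. In such bulk libraries, fewer cells of a type and less RNA per cell cannot be told apart. Nothing in the labels says whether the pools came from separate sorts, so p-values measure the spread between these pools.

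Between genes, levels were compared as CPM per kb of the longest GENCODE transcript. Nfkbia stood first in both groups, at 737 ± 123 CPM per kb in Il3-/-5xFAD and 630.1 ± 47.7 CPM per kb in 5xFAD (SD, n = 3 each). Tnfaip3 and Nfkbiz came next, with 216 ± 88.8 and 206 ± 72.1 CPM per kb in Il3-/-5xFAD and 148 ± 11.7 and 157 ± 12.6 CPM per kb in 5xFAD, and their ranges overlapped in both groups. Of the subunits, Nfkb1 (62.6 ± 2.84 CPM per kb in Il3-/-5xFAD and 63.2 ± 5.50 in 5xFAD) and Rela (52.5 ± 4.60 CPM per kb in Il3-/-5xFAD and 52.7 ± 1.75 in 5xFAD) were the most abundant. They form the classical dimer and lay next to each other, without overlap between their libraries. Nfkb2, Nfkbie and Relb followed, between 14.2 and 19.1 CPM per kb as means in Il3-/-5xFAD and between 13.4 and 17.0 CPM per kb in 5xFAD, where Nfkbie and Relb overlapped. Rel (7.86 ± 2.31 CPM per kb in Il3-/-5xFAD and 5.52 ± 0.729 in 5xFAD) and Bcl3 (3.32 ± 0.434 CPM per kb in Il3-/-5xFAD and 4.79 ± 1.17 in 5xFAD) were lowest, and overlapped each other in 5xFAD only. The order depends on the transcript length chosen for each gene.

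**Figure D2:**
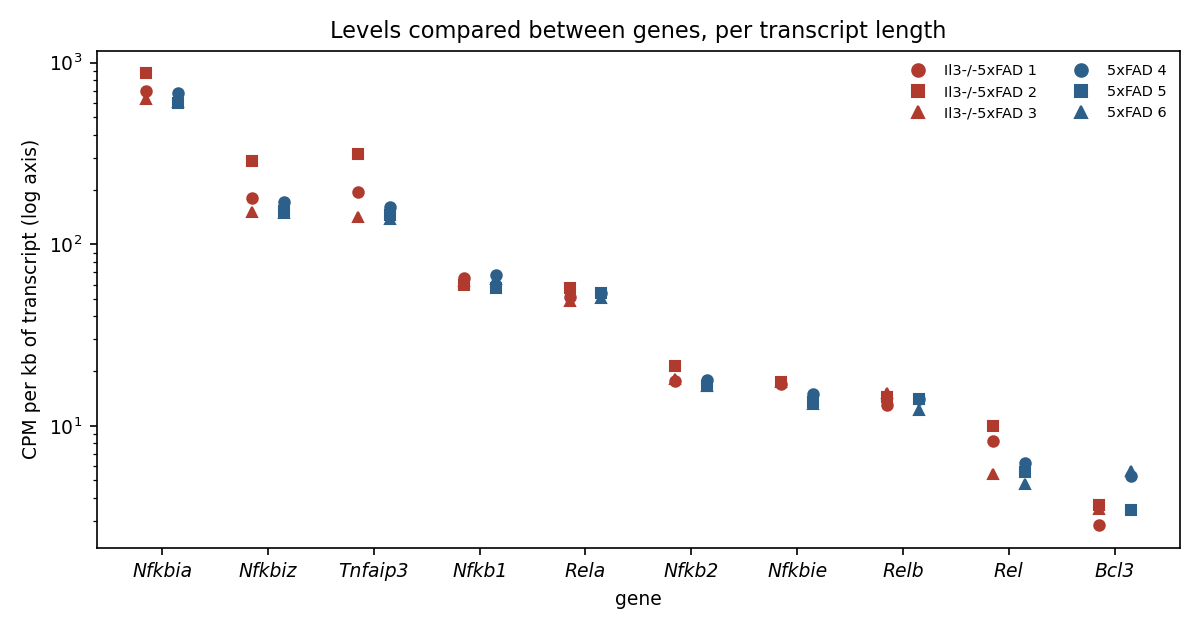
Level of each of the 10 genes in each library, as CPM per kb of the longest transcript on a log axis, with genes ordered by their mean in 5xFAD. Red points are Il3-/-5xFAD libraries and blue points 5xFAD libraries; Nfkbia lies above all other genes in every library, and Bcl3 and Rel lie lowest.

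By its title the study concerns interleukin-3 from astrocytes and its action on microglia, and the comparison asks how the pathway's own components stood without this cytokine. None of the 10 genes was called by limma at an adjusted p under 0.05, while 0.882% of all 11900 tested genes were. An unadjusted limma p under 0.05 was reached by 3 of the 10 (Nfkbie, Rel and Tnfaip3) and by 16.5% of all tested genes. On the recovered reads edgeR called 0 of the 10, beside 0.504% of all tested genes, and DESeq2 called 0 of the 10, beside 5.09%. The median log2 difference of the 10 genes was 0.19, beside -0.000587 over all tested genes, and 7 of the 10 differences were positive, beside 49.9% of all tested genes. Without Il3-/-5xFAD replicate 2 the median of the 10 was 0.07. The median deviation of the 10 genes from their mean over the libraries was 0.04, 0.21 and -0.10 in Il3-/-5xFAD replicates 1, 2 and 3 and 0.01, -0.17 and -0.16 in 5xFAD replicates 4, 5 and 6, so that Il3-/-5xFAD replicate 3 lay below 5xFAD replicate 4. The 5 subunits had a median of 0.08 and the 5 genes that restrain or modulate the pathway a median of 0.31.

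Nfkb1, whose product is cut to the small DNA-binding subunit of the classical dimer, was at 272, 248 and 259.5 CPM in Il3-/-5xFAD replicates 1, 2 and 3 and at 282, 237 and 267 CPM in 5xFAD replicates 4, 5 and 6. Its libraries were interleaved, with a log2 difference of -0.01 ± 0.09 (SE; 95% interval -0.20 to 0.18, limma adjusted p = 0.973). Rela, the activating partner of that dimer, was at 139.6, 156 and 132 CPM in Il3-/-5xFAD and at 146, 146 and 138 CPM in 5xFAD. Its log2 difference was -0.01 ± 0.09 (95% interval -0.19 to 0.18, limma adjusted p = 0.975), and the highest and the lowest library were both Il3-/-5xFAD. Without 1 library the small differences of Nfkb1 and Rela took either sign.

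Nfkb2 and Relb encode the dimer of the alternative pathway, which is driven by receptors of the TNF family through the kinase NIK. Nfkb2 was at 67.8, 82.5 and 69.8 CPM in Il3-/-5xFAD and at 68.9, 63.5 and 63.6 CPM in 5xFAD. Il3-/-5xFAD replicates 2 and 3 stood above every 5xFAD library, replicate 3 by less than 1 CPM, and replicate 1 lay among them. The log2 difference was 0.16 ± 0.10 (95% interval -0.05 to 0.38, limma adjusted p = 0.446). Relb was at 42.7, 47.4 and 49.6 CPM in Il3-/-5xFAD and at 45.9, 45.8 and 40.2 CPM in 5xFAD, with overlapping groups and a log2 difference of 0.08 ± 0.11 (95% interval -0.15 to 0.31, limma adjusted p = 0.752). Map3k14, which encodes NIK and is named here after its values were seen, was at 78.9 ± 3.44 CPM in Il3-/-5xFAD and 65.0 ± 3.07 CPM in 5xFAD (SD, n = 3 each), a log2 difference of 0.28 ± 0.09 (limma adjusted p = 0.132).

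Rel, the subunit known best from lymphocytes and from cytokine genes of activated macrophages, differed most among the subunits. It was at 61.5, 74.4 and 40.3 CPM in Il3-/-5xFAD and at 46.4, 41.6 and 35.6 CPM in 5xFAD. Il3-/-5xFAD replicates 1 and 2 stood above every 5xFAD library, and replicate 3 lay within the 5xFAD range. The log2 difference was 0.46 ± 0.19 (95% interval 0.06 to 0.87, limma adjusted p = 0.233). Rel lies on chromosome 11, as Il3 does, with 110 tested genes between them, of which limma called 1.

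Nfkbie was the only 1 of the 10 genes whose groups did not overlap, while 21.2% of all tested genes had groups that did not overlap. It was at 51.2, 52.4 and 52.3 CPM in Il3-/-5xFAD and at 45.1, 40.5 and 39.8 CPM in 5xFAD. Every Il3-/-5xFAD library stood above every 5xFAD library, a pattern that 9.65% of all tested genes shared. The log2 difference was 0.31 ± 0.10 (95% interval 0.10 to 0.52), and it was not called (limma adjusted p = 0.131; edgeR adjusted p = 0.148; DESeq2 adjusted p = 0.0836). In the 17 alternatives it ran from 0.28 to 0.36 and was called in 0 of them.

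Nfkbia was at 1107, 1379 and 1001 CPM in Il3-/-5xFAD and at 1081, 945 and 956 CPM in 5xFAD. Replicates 1 and 2 of Il3-/-5xFAD were above every 5xFAD library and replicate 3 was not, with a log2 difference of 0.21 ± 0.12 (95% interval -0.04 to 0.47, limma adjusted p = 0.395). Nfkbiz was at 737, 1184 and 622 CPM in Il3-/-5xFAD and at 707, 625 and 611 CPM in 5xFAD. Replicates 1 and 2 of Il3-/-5xFAD were again above every 5xFAD library. The log2 difference was 0.34 ± 0.18 (95% interval -0.06 to 0.73, limma adjusted p = 0.390) and 0.07 without Il3-/-5xFAD replicate 2. Tnfaip3 was at 1201, 1949 and 876 CPM in Il3-/-5xFAD and at 998, 899.7 and 857 CPM in 5xFAD. The libraries stood in the same order as for Nfkbiz. The coefficient of variation of Tnfaip3 was 41.0% over the Il3-/-5xFAD libraries and 7.88% over the 5xFAD libraries, and its log2 difference was 0.47 ± 0.21 (95% interval 0.00441 to 0.94, limma adjusted p = 0.298).

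Bcl3 had the lowest level per kb of the 10 genes and the largest negative difference. It was at 5.24, 6.78 and 6.40 CPM in Il3-/-5xFAD, from 156 to 211 reads, and at 9.80, 6.39 and 10.4 CPM in 5xFAD, from 187 to 392 reads. 5xFAD replicates 4 and 6 stood above every Il3-/-5xFAD library, and replicate 5 lay among them. The log2 difference was -0.45 ± 0.21 (95% interval -0.92 to 0.02, limma adjusted p = 0.328). Blood cells express Bcl3 too, and markers of some blood cells were lower in Il3-/-5xFAD. The 15 measured neutrophil markers summed to 912 to 1471 CPM in Il3-/-5xFAD and 1924 to 3994 CPM in 5xFAD. The 16 markers of T and NK cells summed to 89.5 to 130.4 CPM in Il3-/-5xFAD and 160.3 to 278 CPM in 5xFAD. The 13 monocyte markers summed to 419 to 590.5 CPM in Il3-/-5xFAD and 588 to 702 CPM in 5xFAD. The 5xFAD library lowest in Bcl3, replicate 5, had the highest neutrophil and monocyte sums (3994 and 702 CPM). Its T and NK cell sum (160.3 CPM) was the lowest of the 5xFAD libraries. Among the Il3-/-5xFAD libraries, replicate 1 had the lowest Bcl3 level and the highest T and NK cell sum (130.4 CPM). Nr4a1, which also stands in the list of early genes, held the largest part of the monocyte sum. It averaged 351 ± 114 CPM in Il3-/-5xFAD and 301 ± 24.8 CPM in 5xFAD, a log2 difference of 0.17 ± 0.18 (limma adjusted p = 0.686). Limma called 5 of 13 tested neutrophil genes, 3 of 16 T and NK cell genes and 3 of 12 monocyte genes, all lower, beside 0.63% of all tested genes called as lower. In the same order edgeR called 0, 2 and 2 and DESeq2 called 7, 7 and 5. Limma called 0 of each list without a filter or with untrended eBayes, where it called only 8 of 20129 and 10 of 11900 genes in all. Without 5xFAD replicate 6 limma called 0 of each list. Without 5xFAD replicate 5 it called 0 neutrophil, 5 T and NK cell and 0 monocyte genes, and without 5xFAD replicate 4 it called 11, 2 and 4. Without Il3-/-5xFAD replicate 1 it called 6, 4 and 5, without replicate 2 it called 4, 1 and 2, and without replicate 3 it called 8, 5 and 4. Csf3r, the most abundant gene of the neutrophil list, was not lower. It averaged 674 CPM in Il3-/-5xFAD and 661 CPM in 5xFAD, a log2 difference of 0.03 ± 0.08 (limma adjusted p = 0.903). S100a9, the next most abundant, averaged 169.7 CPM in Il3-/-5xFAD and 653 CPM in 5xFAD. With median-ratio rescaling 0 of the 13 neutrophil genes were called. Limma called 0 of 2 tested B cell genes, 0 of 10 dendritic cell genes, 0 of 9 border-associated macrophage genes and 0 of 11 genes of neurons, glia and endothelium. An unadjusted limma p under 0.05 was reached by 0, 1, 4 and 5 of them, beside 16.5% of all tested genes. In the same order, 1, 8, 8 and 9 differences were negative, with list medians of 0.004, -0.21, -0.34 and -0.41. Lower values were thus not limited to markers of blood cells. Of these last 4 lists edgeR called 0 genes, and DESeq2 called 3, all of the neuron, glia and endothelium list. Ighm, the most abundant gene of the B cell list, averaged 302 ± 19.1 CPM in Il3-/-5xFAD and 314 ± 34.6 CPM in 5xFAD. Cd79b, the next, averaged 15.7 ± 5.55 CPM in Il3-/-5xFAD and 14.5 ± 2.43 CPM in 5xFAD. Pax5 and Cr2 of that list, named after their values were seen, had no read in 4 of the 6 libraries. The sort was on CD45 and CD11b, and transcripts of the T and NK cell and B cell lists were read in every library. The part of blood cells in the values of Bcl3 was not tested.

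**Figure D3:**
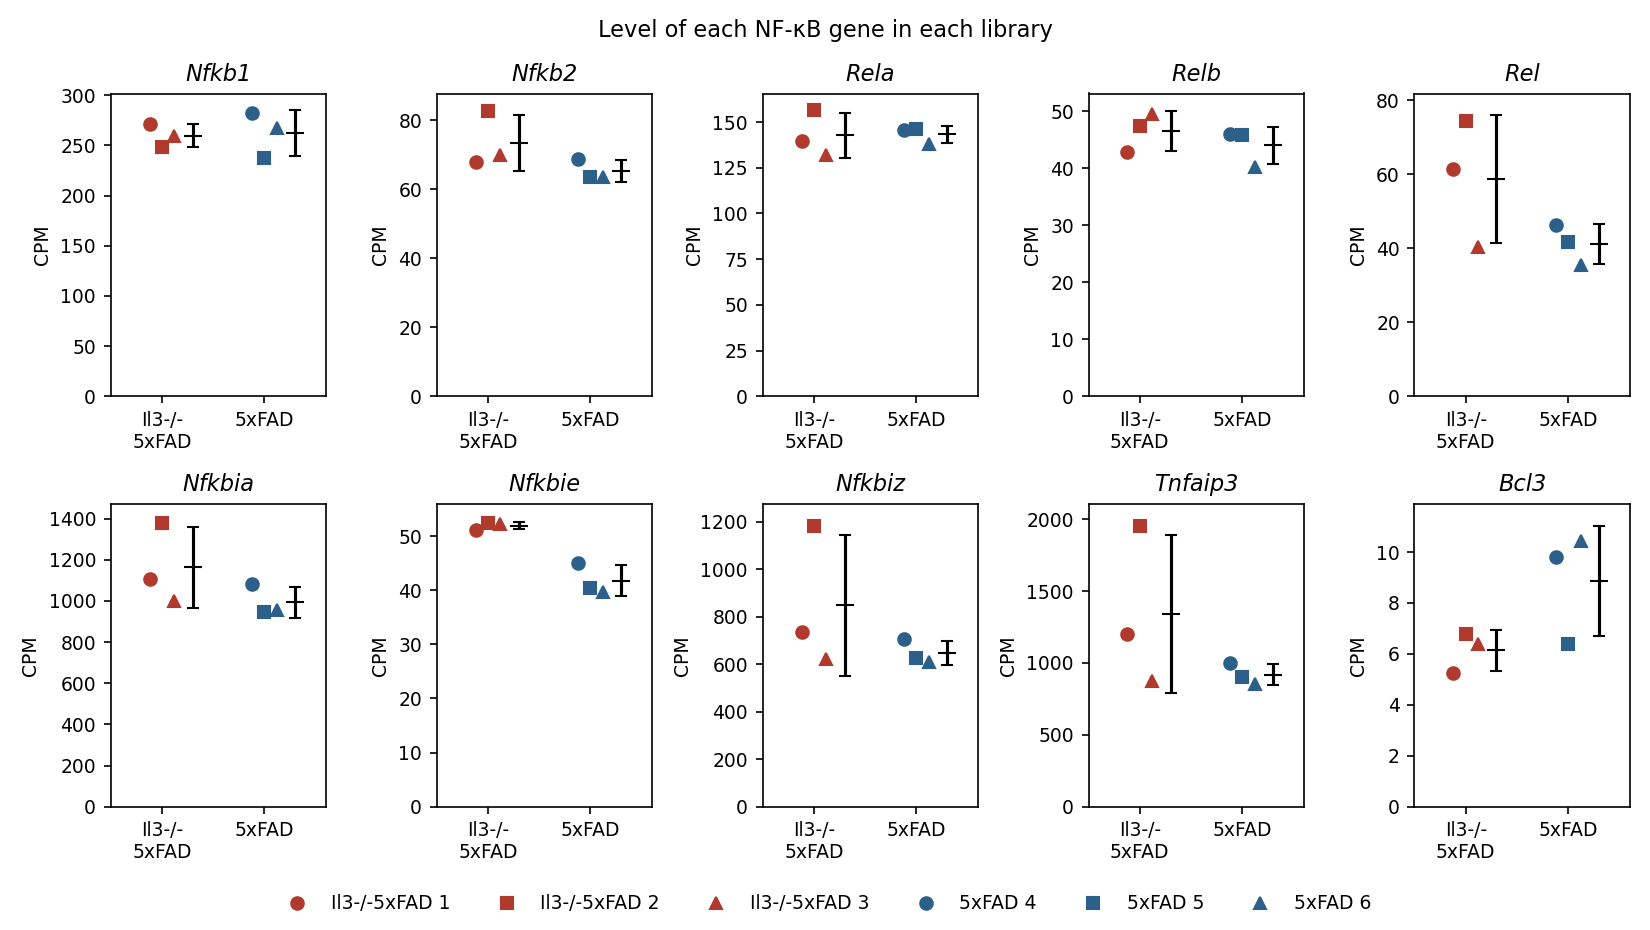
CPM of each of the 10 genes in each library (vertical axes, starting at 0), Il3-/-5xFAD in red and 5xFAD in blue, with the mean and SD of each group in black (n = 3). Nfkbie is the one panel with all Il3-/-5xFAD points above all 5xFAD points, and the Il3-/-5xFAD points of Tnfaip3 spread from 876 to 1949 CPM.

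Rel, Nfkbia, Nfkbiz and Tnfaip3 varied together from library to library. Il3-/-5xFAD replicate 2 held the highest level of 7 of the 10 genes. Rel, Nfkbiz and Tnfaip3 had the same order of libraries: Il3-/-5xFAD replicates 2 and 1, 5xFAD replicates 4 and 5, Il3-/-5xFAD replicate 3 and 5xFAD replicate 6. Over the 6 libraries the 6 pairs among these 4 genes had Pearson's r of 0.903 to 0.989 (exact permutation p of 0.00139 to 0.00556, adjusted over 55 relations 0.0191 to 0.0306) and Spearman's rho of 0.829 to 1 (exact permutation p of 0.00278 to 0.0583, adjusted 0.0382 to 0.292). Without the 2 libraries farthest from the median r was 0.752 to 0.985, and after each group's mean was subtracted 0.873 to 0.989. These 4 genes were picked after the values were seen, which the p-values do not account for. The permutations shuffled all 6 libraries across genotypes. They therefore cannot separate a shared difference between genotypes from a relation within genotypes. Over all 6 libraries the pattern was not particular to them. Nfkb2 had r of 0.802 to 0.945 with the 4 (exact permutation p of 0.0167 to 0.0583, adjusted 0.0833 to 0.201), and 0.281 to 0.565 without the 2 farthest libraries. Rela had r of 0.663 to 0.789 (exact permutation p of 0.0681 to 0.161), and 0.902 to 0.961 after each group's mean was subtracted. Without the 2 libraries farthest from the median its r was only -0.113 to 0.0489. Nfkb1 had r of -0.19 to -0.02 with the 4 (exact permutation p of 0.735 to 0.961).

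Genes outside the set with the most similar levels over the 6 libraries were found for 3 of its genes among 9798 genes. For Nfkbia they were Odc1 (Pearson's r 0.993), Rasgef1b (0.989) and H3f3b (0.988), for Rel Pyroxd2 (0.996), Ccdc45 (0.995) and Zbtb2 (0.990), and for Nfkb1 Sh3glb2 (0.992), Ssna1 (0.982) and Tyk2 (0.977). In all, 37, 73 and 19 genes reached an r above 0.95 with Nfkbia, Rel and Nfkb1 in turn.

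Early genes varied with these 4 genes and with others of the set. Early genes are genes such as Fos, Jun, Egr1 and Atf3 that rise within a short time of stimulation and also when tissue is digested warm. The mean log2(CPM + 1) of 23 of them was 9.86, 9.92 and 9.41 in Il3-/-5xFAD replicates 1, 2 and 3 and 9.65, 9.21 and 9.25 in 5xFAD replicates 4, 5 and 6, the same order of libraries as for Nfkbia. With this mean, Rel, Nfkbia, Nfkbiz and Tnfaip3 had Pearson's r of 0.80 to 0.927 (exact permutation p of 0.00139 to 0.00556, adjusted 0.0191 to 0.0306) and Spearman's rho of 0.829 to 1 (exact permutation p of 0.00278 to 0.0583, adjusted 0.0382 to 0.292). The r was 0.744 to 0.999 without the 2 farthest libraries and 0.718 to 0.876 after each group's mean was subtracted. Nfkbie had an r of 0.763 with the early genes' mean (exact permutation p = 0.125, adjusted 0.335) and Nfkb2 an r of 0.762 (exact permutation p = 0.0444, adjusted 0.188), close to the lowest r of the 4. The smallest p that 6 libraries allow is 0.00139. Here too the permutations ignored genotype and the choice of the 4 genes, and no p was computed after group means were subtracted. Of the 23 early genes none was called by limma or edgeR. DESeq2 called 6 of the 23, all higher, beside 5.09% of all tested genes called in either direction. An unadjusted limma p under 0.05 was reached by 12 of the 23, beside 16.5% of all tested genes. Their median limma difference was 0.33, and 22 differences were positive, beside 49.9% of all tested genes. Fos averaged 4927 ± 606 CPM in Il3-/-5xFAD and 3871 ± 316 CPM in 5xFAD, and Jun 7175 ± 1117 CPM in Il3-/-5xFAD and 5254 ± 785 CPM in 5xFAD (SD, n = 3 each). Egr1 averaged 3546 ± 730 CPM in Il3-/-5xFAD and 2561 ± 284 CPM in 5xFAD, and Atf3 2701 ± 668 CPM in Il3-/-5xFAD and 1926 ± 348 CPM in 5xFAD. Each of these 4 was highest in Il3-/-5xFAD replicate 1 or 2 and lowest in 5xFAD replicate 5 or 6. The part of the digestion or of these genes' stimulus in the values of the feedback genes was not tested.

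**Figure D4:**
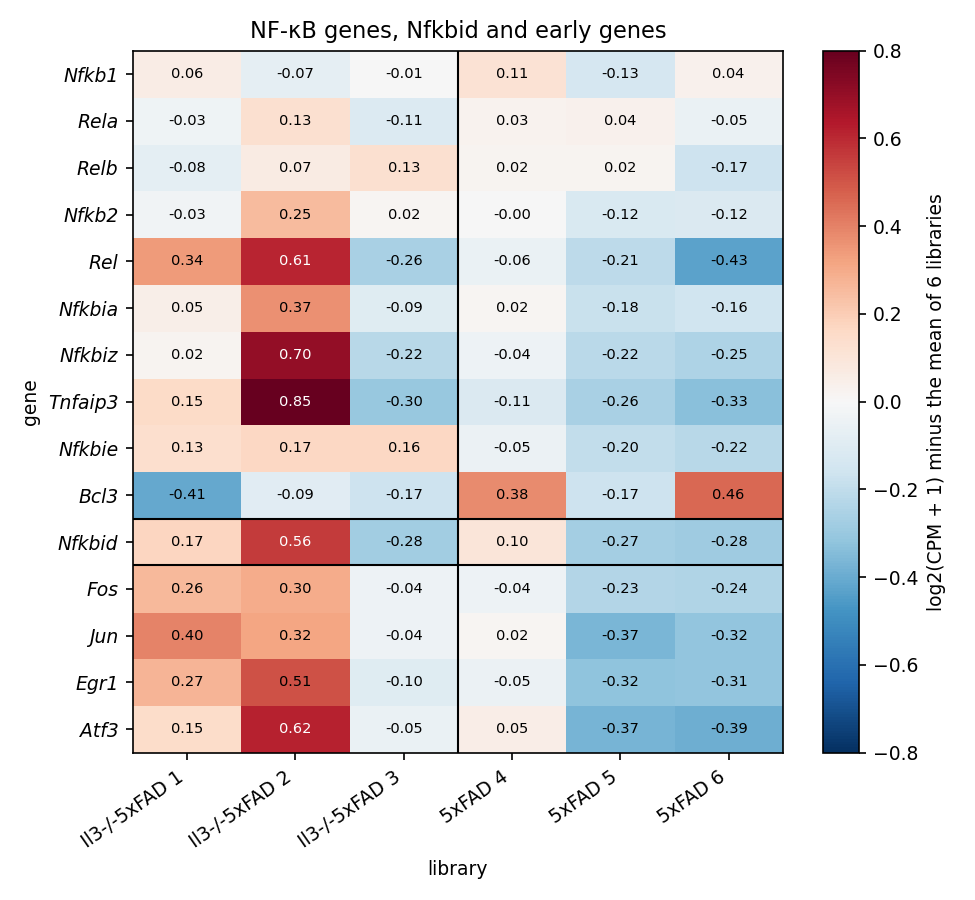
Log2(CPM + 1) of each gene in each library minus its mean over the 6 libraries (colour and printed value), with the 3 Il3-/-5xFAD libraries left of the 3 5xFAD libraries, the 10 genes of the set at the top, then Nfkbid, then the early genes Fos, Jun, Egr1 and Atf3. Il3-/-5xFAD replicate 2 is at 0.85 for Tnfaip3, 0.70 for Nfkbiz and 0.62 for Atf3, and Nfkbie has 3 positive and 3 negative cells split by genotype.

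The size of the differences depended on which Il3-/-5xFAD libraries were included. Without Il3-/-5xFAD replicate 2, Tnfaip3 differed by 0.16, Rel by 0.27, Nfkbia by 0.09 and Nfkb2 by 0.07, while Nfkbie differed by 0.30. Without Il3-/-5xFAD replicate 3, Rel (0.71, limma adjusted p = 0.0262) and Tnfaip3 (0.74, limma adjusted p = 0.0424) were called as higher and Nfkbiz differed by 0.53. In that setting 5.08% of all tested genes were called. No other left-out library gave a call among the 10 genes.

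**Figure D5:**
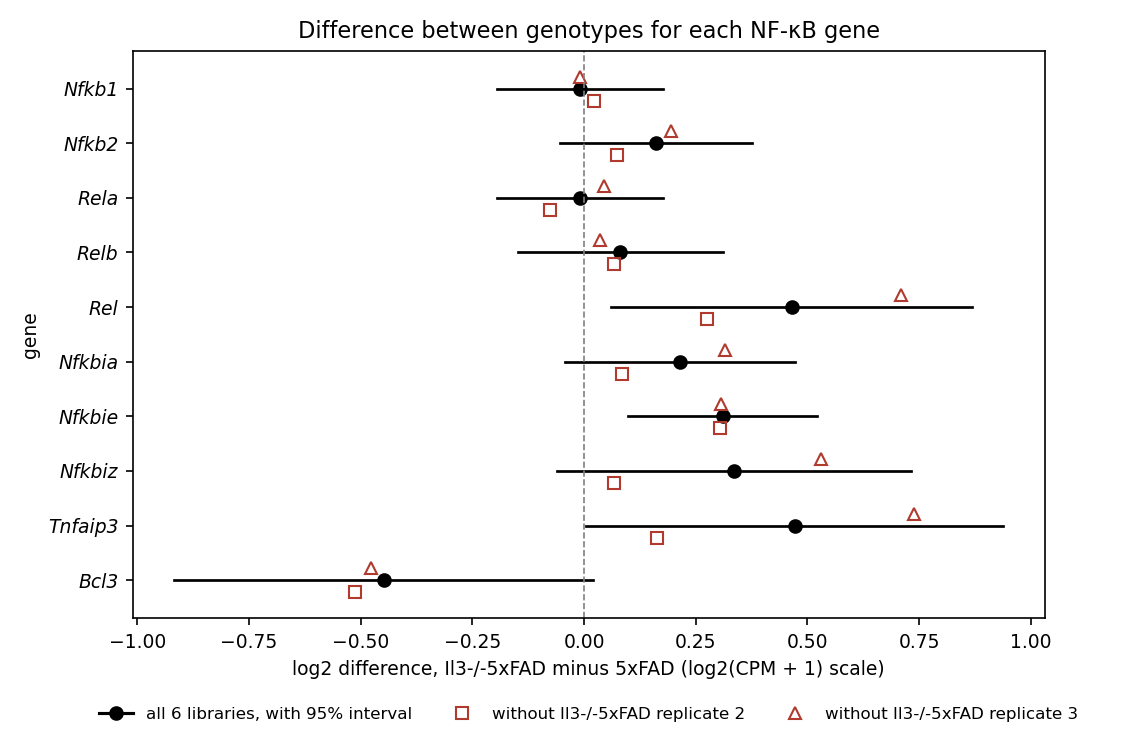
Log2 difference of each of the 10 genes, Il3-/-5xFAD minus 5xFAD on the log2(CPM + 1) scale (horizontal axis), with its 95% interval from limma over all 6 libraries (black; n = 3 per group), and without Il3-/-5xFAD replicate 2 (red squares) or replicate 3 (red triangles). The square and triangle of Tnfaip3 stand at 0.16 and 0.74, those of Nfkbie both at about its full value of 0.31.

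The rest of the pathway was described from lists. The other IκB genes were Nfkbib, whose log2 difference was 0.04 ± 0.12 (limma adjusted p = 0.900), and Nfkbid, which encodes another nuclear IκB-like protein. Nfkbid was at 87.8, 115 and 64.1 CPM in Il3-/-5xFAD and at 83.4, 64.4 and 63.8 CPM in 5xFAD (0.30 ± 0.18, limma adjusted p = 0.427), with overlapping groups and the highest level again in Il3-/-5xFAD replicate 2. Of 25 kinases, adaptors and ubiquitin ligases that act upstream in the pathway none was called by limma, edgeR or DESeq2. An unadjusted limma p under 0.05 was reached by 2 of them, beside 16.5% of all tested genes. Their median difference was 0.08, and 19 differences were positive, beside 49.9% of all tested genes. In 6 of the 25 every Il3-/-5xFAD library stood above every 5xFAD library, where 9.65% of all tested genes did so. The most abundant were Tab2, an adaptor of the kinase TAK1, at 280.5 ± 19.9 CPM in Il3-/-5xFAD and 249 ± 5.95 CPM in 5xFAD (0.17 ± 0.08, limma adjusted p = 0.307), and Card9, an adaptor of C-type lectin receptors, at 159.9 ± 10.8 CPM in Il3-/-5xFAD and 129.0 ± 20.8 CPM in 5xFAD (0.32 ± 0.11, limma adjusted p = 0.169). Of 17 other brakes on the pathway none was called by limma or edgeR, and the median was 0.03. An unadjusted limma p under 0.05 was reached by 2 of the 17, beside 16.5% of all tested genes. DESeq2 called 1 of the 17 brakes lower, Nlrc3, at 2.07 ± 0.719 CPM in Il3-/-5xFAD and 4.73 ± 1.15 CPM in 5xFAD. The most abundant brakes were Tax1bp1, which helps the enzyme encoded by Tnfaip3 (0.06 ± 0.08), and the ubiquitin ligase gene Itch (0.11 ± 0.08).

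Of 34 tested NF-κB target genes, limma called 2, both lower in Il3-/-5xFAD, beside 0.63% of all tested genes called as lower. Traf1, a signalling adaptor of TNF family receptors, was at 3.83 ± 1.07 CPM in Il3-/-5xFAD and 8.80 ± 0.330 CPM in 5xFAD (SD, n = 3 each), a log2 difference of -1.04 ± 0.22 (limma adjusted p = 0.0475). Mmp9, a matrix metalloproteinase gene that also stands in the neutrophil list, was at 21.5 ± 12.5 CPM in Il3-/-5xFAD and 76.9 ± 23.9 CPM in 5xFAD, a log2 difference of -1.95 ± 0.40 (limma adjusted p = 0.0469). Of the 11 alternatives that kept all libraries, 8 called 0 of the 34 targets, edgeR among them. DESeq2 called 5 targets, all lower, beside 5.09% of all tested genes called in either direction. Limma called 0 of the 34 targets without 5xFAD replicate 5 or 6 and 1 without Il3-/-5xFAD replicate 2. Without Il3-/-5xFAD replicate 3 it called 4, beside 5.08% of all tested genes. The list's median difference was -0.03, with 17 positive and 17 negative. In 7 of the 34 every Il3-/-5xFAD library stood below every 5xFAD library and in 3 above, where 11.5% and 9.65% of all tested genes did so. An unadjusted limma p under 0.05 was reached by 8 of the 34, beside 16.5% of all tested genes. Of the cytokine and chemokine genes of the list, 4 are named here after their values were seen, and limma called none of these 4. Ccl5 was at 16.7 ± 1.84 CPM in Il3-/-5xFAD and 31.1 ± 11.4 CPM in 5xFAD (SD, n = 3 each), with every Il3-/-5xFAD library below every 5xFAD library. Its log2 difference was -0.81 ± 0.21 (limma adjusted p = 0.0823; edgeR adjusted p = 0.0945), and DESeq2 called it lower (adjusted p = 0.00404). Tnf was at 220.2 ± 60.5 CPM in Il3-/-5xFAD and 181 ± 7.64 CPM in 5xFAD (0.25 ± 0.15), Il1b at 235 ± 74.6 CPM in Il3-/-5xFAD and 257 ± 15.6 CPM in 5xFAD (-0.17 ± 0.17), and Ccl3 at 574 ± 57.0 CPM in Il3-/-5xFAD and 565 ± 16.4 CPM in 5xFAD (0.02 ± 0.09), with limma adjusted p of these last 3 between 0.430 and 0.938.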

How the data were processed

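Microglial RNA was sequenced in 6 libraries, grouped by their titles into 3 of Il3-/-5xFAD and 3 of 5xFAD. Per the labels' protocols, the library kit selects polyadenylated RNA and keeps strand. The authors deposited 1 table of CPM values; build mm9 and the tools edgeR, HTSeq and STAR are named, without version or role, per the submitters' processing notes. All values (100%) equalled whole reads within 0.01 reads, 1 read being 0.0266 to 0.0358 CPM, so reads were recovered for count tests; totals ran from 27970850 to 37605490.

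Limma 3.58.1 (eBayes with trend, two-sided; R 4.3.3) was run on log2(CPM + 1) for the 11900 genes that reached 1 CPM in 3 or more libraries. Differences are Il3-/-5xFAD over 5xFAD, p-values were adjusted by Benjamini-Hochberg over these genes, and the scale understates changes of low genes. Other settings were a pseudocount of 0.25 or 5, other filters and scalings, eBayes variants, edgeR 4.0.16 (quasi-likelihood), DESeq2 1.42.0 and the removal of each library. Scripts were first tested on simulated data.

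Named were the 10 genes, up to 4 called genes of a list or its 2 most abundant, 4 early genes, and the 3 genes most like Nfkbia, Nfkb1 and Rel; exceptions are stated. The 10 genes and the lists were chosen with earlier results of these data known. Gene order and promoters came from RefSeq GRCm38.p6, another build than the files', and transcript lengths from GENCODE. The planned description of protein sequences was not made, and proteins are not analysed here. Correlations were planned without p-values. Exact permutation p-values, which ignore genotype, were added. The summed level of the microglia marker list is not reported here.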

Additional observations from a re-analysis of the deposited data

How the results depend on the processing

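Of the 10 genes, 0 were called in each of the 11 alternatives that kept all libraries. Calls over all tested genes in these alternatives ran from 8 of 20129 without a filter and 10 of 11900 with untrended eBayes to 605 with DESeq2. The median difference of the 10 genes stayed between 0.16 and 0.20. Over the left-out libraries this median ran from 0.07 to 0.25, and 0 to 2 of the 10 were called (0 to 1 of the subunits, 0 to 1 of the restraining or modulating genes). The near-zero difference of Nfkb1 changed sign with quantile normalization (0.000788) and ran from -0.0797 to 0.0445 when single libraries were left out, and that of Rela ran from -0.0763 to 0.0452; the cause was not tested. The other 8 genes kept their direction.

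The count of called NF-κB targets, 2 with all libraries, was 0 with quantile normalization or median-ratio rescaling, without a filter or with one on a mean of 5 CPM, with a pseudocount of 0.25, with untrended eBayes, and in edgeR with either TMM factors or library totals, 1 with robust eBayes and 5 with DESeq2, and 0 to 4 when single libraries were left out. DESeq2 also called 1 of the other brakes and 6 of the early genes. Leaving out single libraries gave 0 to 6 called early genes and 0 to 1 called kinases, adaptors and ubiquitin ligases. The counts were 6 and 1 without Il3-/-5xFAD replicate 3, where 5.08% of all tested genes were called. Without 5xFAD replicate 4 they were 3 and 1. The cause of these moves was not tested. Over all tested genes, limma called 105, edgeR with TMM 60 and DESeq2 605.

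No paired analysis was possible because the replicate numbers of the groups (1 to 3 and 4 to 6) are not shared. With 3 pools per group, the 95% intervals limit what can be said of small differences. Bcl3, with 156 to 392 reads per library, is the member of lowest depth.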
